A study of Mus musculus with 36 samples.

Results

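The genes of 10 transcription factors that hold mouse embryonic stem (ES) cells in the pluripotent state were examined for binding of the TATA-binding protein TBP. They were Pou5f1, Nanog, Sox2, Klf2, Klf4, Klf5, Esrrb, Tfcp2l1, Tbx3 and Zfp42, chosen by name from 21887 protein-coding genes with an mm10 position, and all 10 had a position. TBP was mapped by CUT&RUN, in which a nuclease tethered to the antibody releases the DNA around the bound protein. RT7 cells carry 2 floxed Taf7 alleles (Taf7flox/flox) and RT10 cells 2 floxed Taf10 alleles (Taf10flox/flox), and both lines are R26CreERT2/+, so a tamoxifen-inducible Cre and the floxed alleles are present in the EtOH groups too. Each genotype is represented by a single cell line. From day 1 to day 3 after plating on day 0, the cells were kept in 4-hydroxytamoxifen (4-OHT), to activate Cre, or in the ethanol vehicle (EtOH). The medium of all groups held serum, 1500 U/ml LIF, 3 µM CHIR99021 (a GSK3 inhibitor) and 1 µM PD0325901 (a MEK inhibitor), conditions that favour the naive state. The data were 4 lists of TBP peak summits with 1379 summits in RT7 4-OHT, 2666 in RT7 EtOH, 2188 in RT10 4-OHT and 3102 in RT10 EtOH. Each group has 2 TBP libraries but 1 list, so no difference between treatments has a replicate check, no test was run and read depth is unknown. TAF7 and TAF10 levels were not analysed here, so the extent of the deletions was not checked.

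TBP opens transcription by binding and bending DNA near a gene start, and TFIID, a complex of TBP with TAF subunits such as TAF7 and TAF10, brings it to RNA polymerase II promoters. Pou5f1 (Oct4), Sox2 and Nanog form the core of the pluripotency network. Around this core lie the Krüppel-like factors Klf2, Klf4 and Klf5, the orphan nuclear receptor Esrrb, the grainyhead-family factor Tfcp2l1 and the T-box factor Tbx3, several of which respond to LIF, GSK3 or MEK signals. Zfp42 (Rex1) is a zinc finger factor widely used as a marker of naive ES cells. In ES cells Pou5f1 and Nanog are known to have upstream enhancers, and Sox2 and Klf4 enhancers downstream of the gene; overlap of the summits described here with those elements was not tested.

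The promoters with a TBP summit show what lay under the signal. A promoter with a start in the RefSeq promoter table (GRCm38.p6, the mm10 assembly) was found for 8 of the 10 genes, and Klf5 and Tbx3 had none there. The stretches before the listed start of Nanog (chr6:122707289-122707488, plus strand), Klf2 (chr8:72318912-72319061, plus strand) and Zfp42 (chr8:43307010-43307209, minus strand) are given 5′ to 3′ and end at the base before the start, which is base -1. Capitals mark 11 bases centred on each EtOH summit of RT7 or RT10 in the stretch.
Nanog: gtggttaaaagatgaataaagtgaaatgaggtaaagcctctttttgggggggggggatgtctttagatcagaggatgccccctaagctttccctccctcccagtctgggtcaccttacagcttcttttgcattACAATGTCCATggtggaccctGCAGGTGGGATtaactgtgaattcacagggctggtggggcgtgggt
Klf2: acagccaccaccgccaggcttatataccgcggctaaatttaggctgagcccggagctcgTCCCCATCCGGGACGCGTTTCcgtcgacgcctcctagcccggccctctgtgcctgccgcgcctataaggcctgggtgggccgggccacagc
Zfp42: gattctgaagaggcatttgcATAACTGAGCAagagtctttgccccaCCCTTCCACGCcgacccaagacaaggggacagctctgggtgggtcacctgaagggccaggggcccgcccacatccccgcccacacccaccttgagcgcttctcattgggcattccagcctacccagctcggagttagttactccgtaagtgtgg

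In Nanog the RT10 EtOH summit lay 62 bases before the start, on the last base of an ACAATG (a SOX-type core, bases -67 to -62) that follows an ATGCAAA on the other strand (an octamer-type core, bases -75 to -69). The RT10 EtOH summit of Zfp42, at base -175, lay beside another ATGCAAA on the other strand, at -185 to -179. The other summits lay off these letters, in Nanog at 6 in RT7 4-OHT, -41 in RT7 EtOH and -18 in RT10 4-OHT, and in Zfp42 at -149 in RT7 EtOH. Searched on both strands of the 300-base windows, ATGCAAA was in 3 of the 8 promoters (Nanog, Sox2 and Zfp42) and in 4.16% of 17492 protein-coding promoters. ACAATG was in 2 of 8 and in 11.4% of all. The GC box letters GGGCGG were in 5 of 8 (Pou5f1, Sox2, Klf2, Klf4 and Zfp42) and in 46.3% of all. The ESRRB half-site AAGGTCA was in none of the 8 and in 4.08% of all. These motifs, and TATAAG below, were picked after the values were seen, and a match is a description of letters only.

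The TATA-box letters of each promoter were read next. Shown for comparison are the 80 bases before the start of Tfcp2l1 (chr1:118627865-118627944, plus strand) and Klf4 (chr4:55532476-55532555, minus strand), with TATAAA or TATAAG in capitals. Those of Pou5f1 (chr17:35505952-35506031, plus strand) and Sox2 (chr3:34649915-34649994, plus strand) held neither.
Tfcp2l1: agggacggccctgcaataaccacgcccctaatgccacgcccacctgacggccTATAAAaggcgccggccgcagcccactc
Klf4: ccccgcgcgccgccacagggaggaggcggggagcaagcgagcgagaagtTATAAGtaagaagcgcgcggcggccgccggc
Pou5f1: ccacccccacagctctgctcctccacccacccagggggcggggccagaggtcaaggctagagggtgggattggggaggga
Sox2: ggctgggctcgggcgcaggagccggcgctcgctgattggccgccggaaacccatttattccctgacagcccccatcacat

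Tfcp2l1 alone of the 8 had TATAAA in the 50 bases before the start, at -28 to -23, as had 4.29% of all protein-coding promoters. TATAAG stood at -29 to -24 in Klf2 and at -31 to -26 in Klf4, and in 2.14% of all promoters over the same 50 bases. TATATA and TATTTA were in none of the 8 over those bases and in 1.66% and 2.26% of all. In the wider 300-base window TATATA occurred in Klf2, at -130 to -125, overlapping a TATAAG on the other strand, and TATTTA in Klf4. Tfcp2l1 and Klf2 had a TBP summit at the start in every list and Klf4 in none, so these letters were found with and without a called summit.

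TBP summits lay at the ends of fewer pluripotency genes after 4-OHT in both lines. The count takes as bound any gene whose start or end has a summit no more than 500 bp away. In RT7, 3 of 10 genes were bound in 4-OHT and 6 of 10 in EtOH, beside 2.73% and 5.31% of all protein-coding genes. In RT10, 4 of 10 were bound in 4-OHT and 7 of 10 in EtOH, beside 3.86% and 5.95% of all. Nanog, Klf2 and Tfcp2l1 were bound in all 4 lists, as were 425 protein-coding genes (1.94%). Klf5 and Zfp42 had an EtOH summit and no 4-OHT summit in both lines, Tbx3 in RT7, and Sox2 in RT10. Of the genes bound in EtOH, 3 of 6 in RT7 and 3 of 7 in RT10 thus had no 4-OHT summit, near the 55.2% and 48.4% of all bound protein-coding genes without one. The absence of a summit says that no peak was called, not that TBP was absent.

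**Figure D1:**
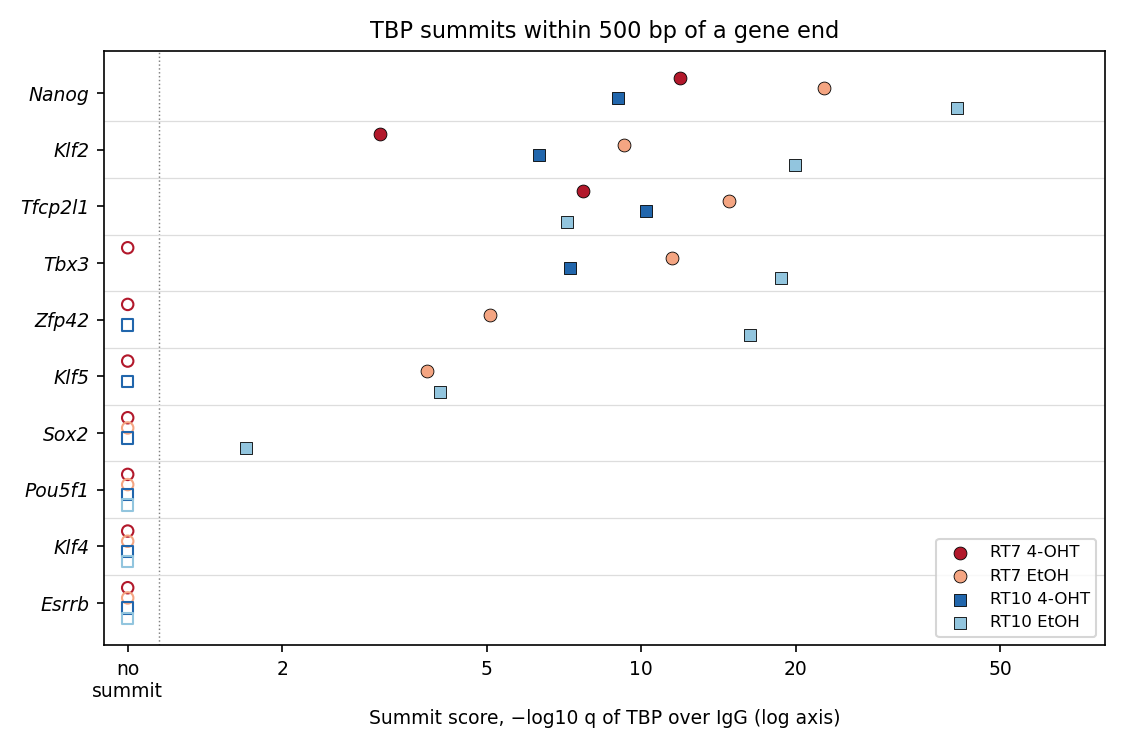
Score of the TBP summit within 500 bp of either gene end (x axis, −log10 q on a log axis) for each gene (rows) in the 4 lists; open symbols at the left mark lists with no such summit. Nanog, Klf2 and Tfcp2l1 have a summit in every list, Pou5f1, Klf4 and Esrrb in none, and scores are to be read within a list, not between lists.

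Among the core factors, Nanog (chromosome 6, 122707489 to 122714633) was the one with a start summit throughout. The Nanog start summit scored 11.9 in RT7 4-OHT and 22.7 in RT7 EtOH, and 9.02 in RT10 4-OHT and 41.3 in RT10 EtOH, on the authors' score, read as −log10 q. Its positions in these lists were 6, -41, -18 and -62 bp from the start, a span of 68 bp. In rank this was number 275 of RT7 4-OHT, 245 of RT7 EtOH, 712 of RT10 4-OHT and 92 of RT10 EtOH. Among all sites of the 10 genes it ranked second in both EtOH lists, after the upstream site of Nanog itself, and in both 4-OHT lists the Esrrb and Klf4 sites described below also stood above it. In RT10 4-OHT the Tfcp2l1 start and the Zfp42 upstream site, both at rank 587, and the site nearest to Tbx3, at rank 306, did so as well. Ranks of lists of different length do not by themselves show a change.

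Sox2 (chromosome 3, 34649995 to 34652461) had a start summit in RT10 EtOH alone, 42 bp inside the gene and within the overlapping transcript Sox2ot, with a score of 1.70 and rank 3004 of 3102. That score lay below the lower quartile of its list (3.75). Pou5f1 (chromosome 17, 35506032 to 35510777) had no summit within 500 bp of an end in any list. For both genes the TBP summits in the other lists lay farther out, as described below.

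Klf2 (chromosome 8, 72319062 to 72321654) was the Krüppel-like factor gene with a start summit in all 4 lists. Its scores were 3.10 in RT7 4-OHT and 9.25 in RT7 EtOH, and 6.33 in RT10 4-OHT and 19.9 in RT10 EtOH. The EtOH summits lay at -76 and -86 bp and the RT10 4-OHT summit at 40 bp, while the RT7 4-OHT summit stood apart at -235 bp. Klf5 (chromosome 14, 99298691 to 99313412) had a summit just outside its lower-coordinate end in EtOH only, with scores of 3.83 in RT7 and 4.06 in RT10, ranks 1811 and 2062. Klf4 (chromosome 4, 55527137 to 55532475) had none at its ends in any list.

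Tfcp2l1 (chromosome 1, 118627923 to 118685168) had a summit inside the gene, 67 to 243 bp from its first base, in every list. All Tfcp2l1 summit distances are from that base, whereas its TATAAA was placed from the listed start, 118627945. The Tfcp2l1 start summit scored 7.70 in RT7 4-OHT and 14.8 in RT7 EtOH, and 10.2 in RT10 4-OHT and 7.18 in RT10 EtOH. It ranked 443 in RT7 4-OHT, 463 in RT7 EtOH, 587 in RT10 4-OHT and 1328 in RT10 EtOH. Tbx3 (chromosome 5, 119670534 to 119684724) had no summit in RT7 4-OHT and one of score 11.5 in RT7 EtOH, while RT10 had summits of 7.27 in 4-OHT and 18.7 in EtOH. The 3 Tbx3 summits lay within 41 bp of each other, inside the gene near its lower-coordinate end, where the antisense gene Tbx3os1 also runs. Whether the lines differ at Tbx3 was not tested. Zfp42 (chromosome 8, 43295067 to 43307009) had no summit at its ends in 4-OHT and EtOH summits of 5.08 at -149 bp in RT7 and 16.3 at -175 bp in RT10. No other gene of the RefSeq table had an end within 500 bp of the median position of the summits at any of these gene ends.

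The EtOH lists were longer than the 4-OHT lists, so EtOH summits of low rank have no counterpart in number there. In RT7 EtOH, Zfp42 (rank 1511) and Klf5 (1811) lay beyond the 1379 summits of the 4-OHT list, and Tbx3 (623) well within that number. In RT10 EtOH, Sox2 (3004) lay beyond the 2188 summits of the 4-OHT list, Klf5 (2062) shared a score with the summits at that limit, and Zfp42 (472) lay far inside it. With the RT7 EtOH list shortened to the 4-OHT length, 4 genes were bound, against 3 in 4-OHT, with 3.25% of protein-coding genes bound when tied scores were taken and 2.95% when not. For RT10 the shortened EtOH list bound 6 genes with ties and 5 without, against 4 in 4-OHT, with 4.54% and 4.15% of protein-coding genes. Among genes bound in an EtOH list within the 4-OHT length, ties left out, Tbx3 in RT7 and Zfp42 in RT10 were thus the ones without a 4-OHT summit. The share of all protein-coding genes in that position was not computed, so neither gene can be called unusual.

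**Figure D2:**
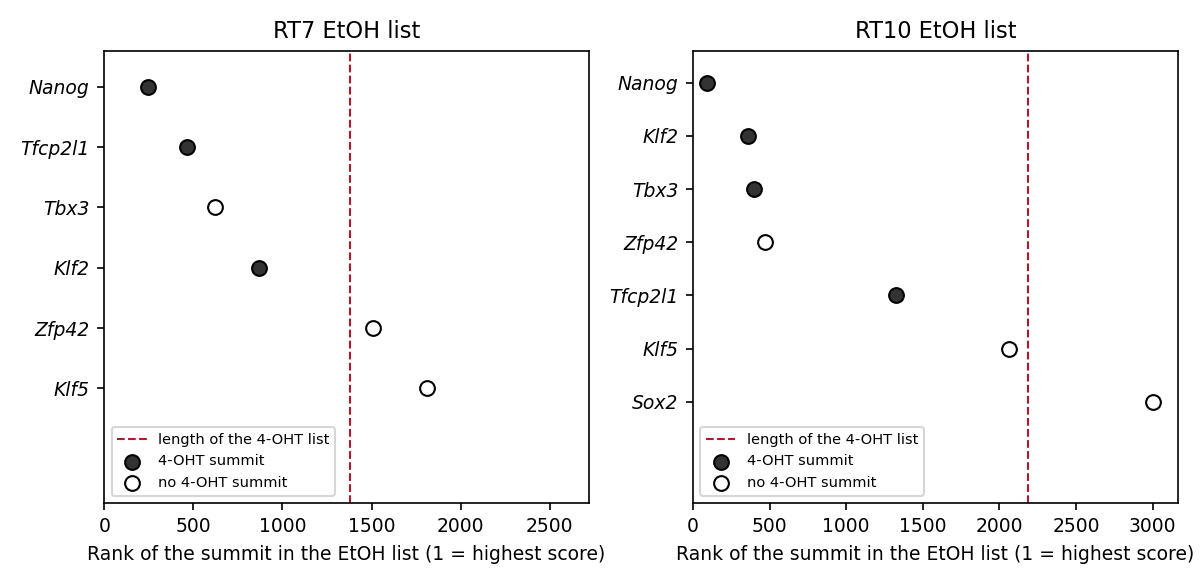
Rank of each pluripotency gene's end summit in the EtOH list of RT7 (left) and RT10 (right), filled where the 4-OHT list also has a summit at the gene and open where it has none; the dashed line is the length of the 4-OHT list. Tbx3 (rank 623) is the open symbol well left of the line in RT7 and Zfp42 (rank 472) in RT10.

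Away from gene ends, Pou5f1, Nanog, Klf2 and Esrrb had a TBP summit inside the gene or within 20 kb upstream in every list, Tbx3 and Zfp42 in both RT10 lists only, and Tfcp2l1 in RT10 EtOH only. Pou5f1 and Esrrb thus had such a summit without one at the start. Inside the genes or within 20 kb upstream (on both sides for Klf5 and Tbx3, whose strand is not in the promoter table), 15 further sites were found, joining summits of different lists within 500 bp. Of these, 3 were in all 4 lists, those upstream of Nanog and Klf2 and a site inside Esrrb, and 6 were in a single list. In RT7, 4 of 7 such EtOH sites had a 4-OHT summit, leaving 3 without, beside 63.9% without among all 1375 EtOH summits over 500 bp from any gene end. In RT10, 5 of 13 had none, beside 51.4% of 1660.

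**Figure D3:**
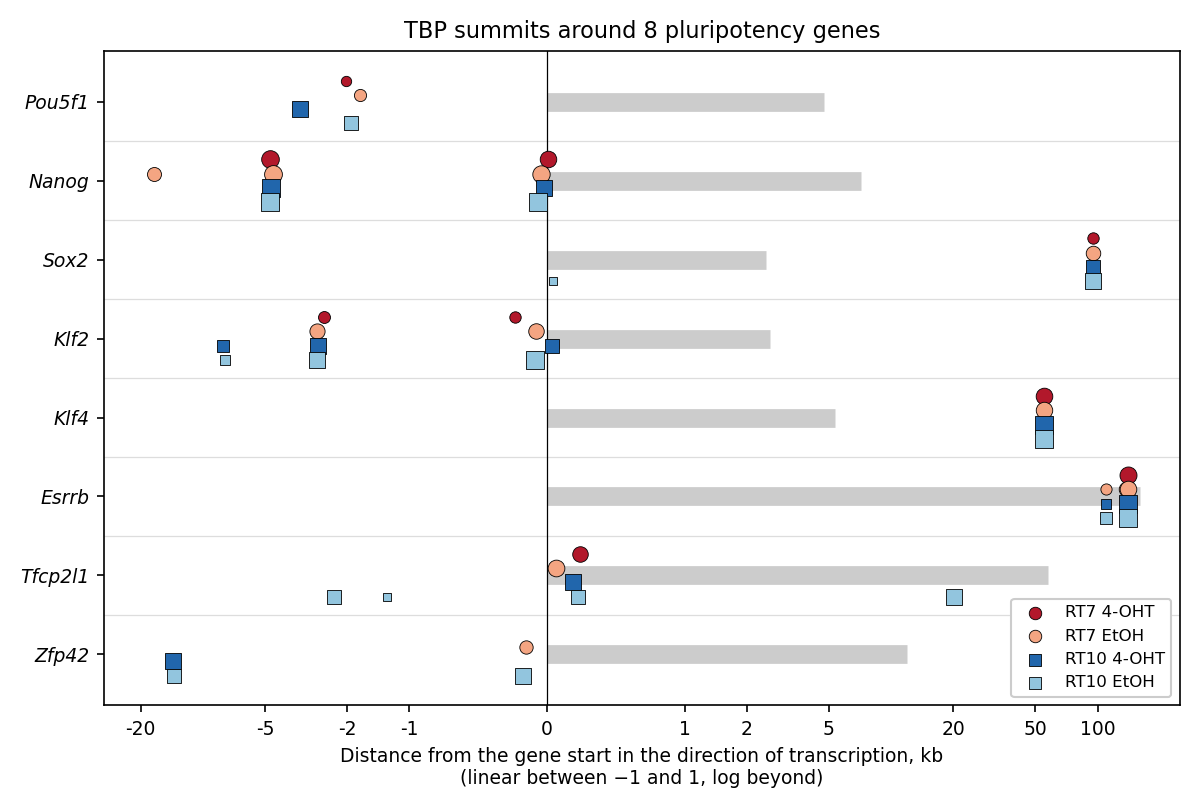
Distance of TBP summits from the gene start in kb (x axis, linear between −1 and 1 and log beyond, positive in the direction of transcription) for the 8 genes with a listed strand, in 4 lists from top to bottom within each row; grey bars are the genes and larger symbols rank higher in their list. Nanog and Klf2 show an upstream and a start site in every list, and Sox2, Klf4 and Esrrb a distant site in every list; the far Zfp42 site inside Fat1 is not drawn.

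The Nanog upstream site, at 122702776 to 122702930, had the highest rank of all sites of the 10 genes in each of the 4 lists. It scored 24.4 in RT7 4-OHT and 38.4 in RT7 EtOH, at -4708 and -4559 bp from the start, and 35.1 in RT10 4-OHT and 63.3 in RT10 EtOH, at -4687 and -4713 bp. Its ranks were 75 in RT7 4-OHT and 89 in RT7 EtOH, and 96 in RT10 4-OHT and 32 in RT10 EtOH, so it stood within the highest 5.44% of every list. No gene of the table has an end or a body there. The site outscored the Nanog start in all 4 lists. Protein-coding genes with a start and an upstream summit in both lists of a line were counted for this order in each list. The highest summit 501 bp to 20 kb upstream was taken, and summits at other genes were not left out, unlike the Nanog site. The order held for 53.2% of these genes in RT7 4-OHT and 51.6% in RT7 EtOH, and for 55.9% in RT10 4-OHT and 53.8% in RT10 EtOH. The share with this order in all 4 lists was not computed. A further Nanog upstream summit at -17150 bp (5.57) was in RT7 EtOH only.

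Klf2 also had an upstream site in all lists, at -2576 bp in RT7 4-OHT (score 3.77), -2783 in RT7 EtOH (8.31), -2780 in RT10 4-OHT (8.24) and -2795 in RT10 EtOH (11.7). Within both 4-OHT lists the upstream site scored above the Klf2 start, and within both EtOH lists below it. In RT7 the scores were close. They were 3.77 against 3.10 in RT7 4-OHT (ranks 968 and 1033 of 1379) and 8.31 against 9.25 in RT7 EtOH. Of 62 protein-coding genes with a start and an upstream summit in both RT7 lists, 11 (17.7%) had this order, upstream higher in 4-OHT and lower in EtOH, and 13 of 93 (14.0%) had it in RT10. These shares are per line and take the upstream summit as for Nanog above, and the share with this order in both lines was not computed. Over all of these 62 and 93 genes the treatments were nearly alike. The upstream summit was higher for 33 genes in RT7 4-OHT and 32 in RT7 EtOH, and for 52 in RT10 4-OHT and 50 in RT10 EtOH. In RT10 a weaker Klf2 site lay at -7990 bp in 4-OHT (4.21) and -7820 bp in EtOH (2.89).

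**Figure D4:**
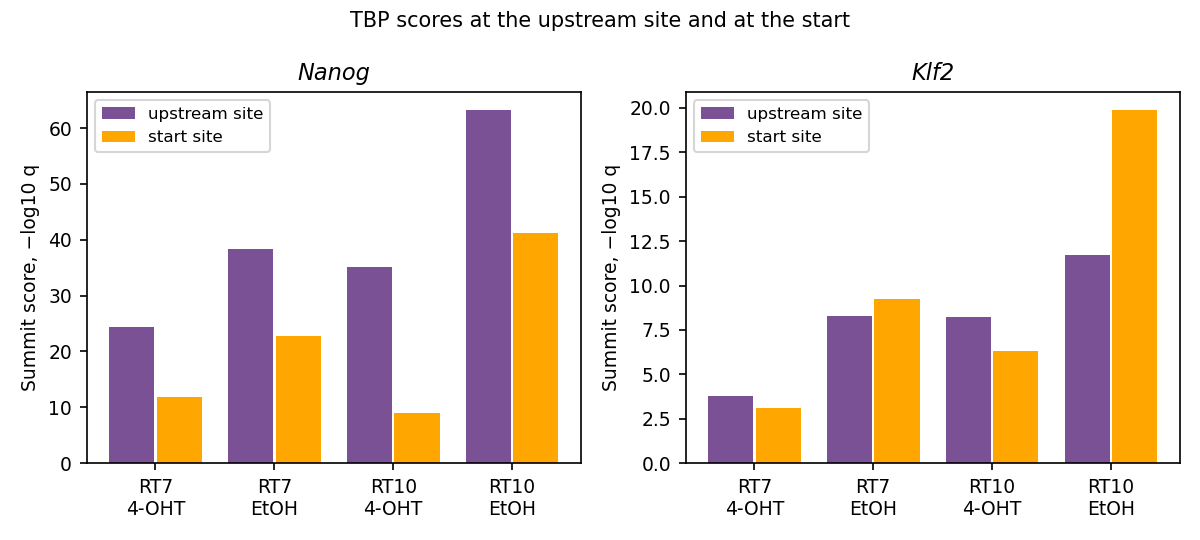
Summit scores (y axis, −log10 q) of the upstream site and the start site of Nanog (left) and Klf2 (right) in each list, 1 value per bar. Nanog's upstream site is higher in every list, and Klf2's is higher in the 4-OHT lists and lower in the EtOH lists; heights are compared within a list only.

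Upstream of Pou5f1 a summit was present in each list, but not at the same place. It lay at -2020 bp in RT7 4-OHT (2.78) and -1736 bp in RT7 EtOH (3.83), and at -3374 bp in RT10 4-OHT (7.79) and -1908 bp in RT10 EtOH (6.35). All of these fall within Gm32362, another gene of the table. Zfp42 had a site about 14 kb upstream in RT10 alone, at -13961 bp in 4-OHT (10.2) and -13804 bp in EtOH (6.40), so the RT10 4-OHT list kept a summit there without one at the start. Tfcp2l1 had upstream summits at -2305 and -1280 bp and one 20224 bp inside the gene in RT10 EtOH only. With 501 bp to 20 kb upstream as the window, 3 of 8 genes had a summit in RT7 4-OHT and 3 in RT7 EtOH, beside 2.94% and 4.82% of 17492 protein-coding genes, and 4 and 5 had one in RT10 4-OHT and RT10 EtOH, beside 4.13% and 5.72%.

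Esrrb (chromosome 12, 86361117 to 86521628) carried its summits deep inside the gene. The site in all 4 lists, at 86501894 to 86501945, spread over only 51 bp and scored 15.3 in RT7 4-OHT and 14.0 in RT7 EtOH, and 16.9 in RT10 4-OHT and 34.0 in RT10 EtOH. It ranked 191, 512, 306 and 139 in these lists, in the same order. Of the pair of weaker sites inside Esrrb, at 86471143 to 86471319 and 86498991 to 86499140, neither was in RT7 4-OHT and both were in the other 3 lists, with scores of 2.62 to 6.49. Inside Tbx3 a site at 119680009 to 119680075 was in RT10 only, with 7.27 in 4-OHT and 7.18 in EtOH, and another summit of 3.23 in RT10 EtOH.

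For genes with no summit at an end the nearest summit was located. That of Klf4 lay downstream, 49.5 to 49.7 kb from the nearer gene end, at 55477483 to 55477634, in all 4 lists. It scored 12.8 in RT7 4-OHT and 13.2 in RT7 EtOH, and 30.3 in RT10 4-OHT and 31.3 in RT10 EtOH, and stood in the highest 18.6%, 20.6%, 5.85% and 5.83% of these lists. That of Sox2 lay about 93 kb beyond the gene, at 34745307 to 34745410, and was again in all 4 lists, with 3.10 in RT7 4-OHT and 6.49 in RT7 EtOH, and 5.17 in RT10 4-OHT and 11.6 in RT10 EtOH. Neither site lies in or at the end of another gene of the table. After 4-OHT the nearest summit to Klf5 lay 26.7 kb beyond its higher-coordinate end in both lines (3.95 in RT7 and 5.17 in RT10), in RT10 EtOH also with 2.44, and RT7 EtOH had none at that site. In RT7 4-OHT the nearest summit to Tbx3 was 90.5 kb away at an end of the gene AW549542, and that to Zfp42 was 1672 kb away inside Fat1, both of them in all 4 lists.

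Other genes of the network were counted with the same 500 bp rule, under which 2.73% of all protein-coding genes were bound in RT7 4-OHT and 5.31% in RT7 EtOH, and 3.86% in RT10 4-OHT and 5.95% in RT10 EtOH. In lists of this size a few percent is about 1 gene, so counts of 0 to 1 are near these shares and say nothing about the list. Of 29 further naive pluripotency factors and markers, 4 were bound in RT7 4-OHT and 6 in RT7 EtOH, and 4 in RT10 4-OHT and 8 in RT10 EtOH. Fbxo15, a target gene of Oct4, scored 25.1 and 47.5 in the RT7 lists and 39.9 and 33.6 in the RT10 lists, 4-OHT before EtOH. Jarid2, a partner of Polycomb repressive complexes, was also bound in all 4, with 7.13 in RT7 4-OHT and 21.8 in RT7 EtOH, and 13.4 in RT10 4-OHT and 26.1 in RT10 EtOH. Trim28, a corepressor, was bound in EtOH only, with 5.08 in RT7 and 10.8 in RT10. Fgf4, a growth factor gene, was bound in every list but RT7 4-OHT, with scores of 3.83 to 10.7. The transcription factor of LIF signalling, Stat3, was bound throughout. Of 12 genes of the LIF and JAK-STAT pathway, Stat3 was the one bound in every list (6.71 in RT7 4-OHT and 18.2 in RT7 EtOH, 5.49 in RT10 4-OHT and 10.8 in RT10 EtOH), and the kinase gene Pim1 in RT7 EtOH (5.57).

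Of 13 genes of the WNT and GSK3 pathway, 1 and 3 were bound in RT7 4-OHT and EtOH and 2 and 1 in RT10 4-OHT and EtOH, with Gsk3b in every list. The shares of all protein-coding genes were 2.73% and 5.31% in RT7 4-OHT and EtOH, and 3.86% and 5.95% in RT10 4-OHT and EtOH. A count of 1 in the lists of this paragraph is near them. Of 19 genes of the FGF and MEK-ERK pathway, 1 and 3 were bound in the RT7 lists and 3 and 4 in the RT10 lists, and Egr1, an immediate early target of this pathway, was bound in all 4 with the highest scores of the set (30.4 in RT7 4-OHT and 53.3 in RT7 EtOH, 44.2 in RT10 4-OHT and 61.7 in RT10 EtOH). Among 32 relatives of these factors outside the 10, such as other KLF and SOX genes, 2 and 4 were bound in the RT7 lists and 4 and 5 in the RT10 lists. Klf6 led them with 30.4 in RT7 4-OHT and 60.9 in RT7 EtOH, and 51.4 in RT10 4-OHT and 58.6 in RT10 EtOH, above any end summit of Klf2 or Klf5. Klf7 was bound in every list but RT7 EtOH.

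Genes that mark other states were counted in the same way, and 0 or 1 gene of each list was bound, which is near the shares of all protein-coding genes given above. Of 13 genes of formative and primed pluripotency, Nodal alone was bound, in every list but RT7 4-OHT, with 3.83 to 14.0. Of 16 genes of differentiated lineages, Eomes alone was bound, in EtOH only (5.68 in RT7 and 1.41 in RT10), and of 11 fibroblast markers Fn1 alone, in EtOH only (7.34 in RT7 and 3.75 in RT10). TBP summits do not measure RNA, so these counts do not establish the cell type.

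The genes closest to the 3 bound throughout were sought among the 425 protein-coding genes with an end summit in all 4 lists, as those with the smallest maximum difference in rank, given as a percent of list length. Nanog stood at 19.9% of RT7 4-OHT, 9.19% of RT7 EtOH, 32.5% of RT10 4-OHT and 2.97% of RT10 EtOH. Closest to it were Ptma, H4c2 and Rpl41, with largest differences of 5.71, 6.09 and 6.35 percentage points. For Klf2 they were Zswim4 (10.8), Uchl1 (13.0) and 2610301B20Rik (14.7), and for Tfcp2l1 they were Spns1 (7.47), Smc3 (8.50) and Adnp2 (8.66). These values come from 4 lists and describe likeness of rank only.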

How the data were processed

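TBP CUT&RUN was done in RT7 and RT10 mouse ES cells with 2 libraries per line and treatment, of 36 libraries in the series, per the labels. Cutadapt 4.0, Bowtie2 2.4.4, SAMtools 1.15.1, bedtools, deepTools, MACS2 2.2.7.1 and build mm10 are named in the submitters' processing notes, with no role or parameter. Each deposited summit is 1 base with a score by the authors, read as the −log10 q-value that MACS2 writes by default, called for TBP against the IgG of the same line and treatment per the peak names. No score fell under 1.30, about what a q-value of 0.05 gives; the threshold, any use of the yeast spike-in and whether the 2 libraries were pooled are not given in the sources used here. The treatment label of the IgG libraries behind the RT7 EtOH and RT10 4-OHT lists differs from their title; the title, which matches the peak names, was used.

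The files give no depth of any library and hence no counting error, and scores were used only to rank summits within a list. Gene positions and promoter sequences came from RefSeq tables of GRCm38.p6. Genes, lists and rules were chosen with earlier results of these data known. The named genes were all 10 members, up to 5 genes per further list with the highest scores first (fewer are given here), and the 3 genes closest in rank to each member bound in every list. Under the alternatives given at the end only the 10 genes were counted. Among those alternatives, the share of all protein-coding genes was computed only for genes bound in the shortened EtOH lists. Matching code was tested on simulated data with planted summits. Python 3.11.15, NumPy 2.4.6, pandas 2.3.3 and matplotlib 3.10.9 were used.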

Additional observations from a re-analysis of the deposited data

How the results depend on the processing

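Of 54 alternative counts for 10 results, 45 stayed within 1.5 times the main count. A minimum score of 10 left 1 bound gene in RT7 4-OHT and 3 in RT7 EtOH, and 1 in RT10 4-OHT and 4 in RT10 EtOH, fewer by construction. Of these EtOH-bound genes, 2 of 3 in RT7 and 4 of 4 in RT10 had no 4-OHT summit of that score. The RT10 4-OHT gene was Tfcp2l1 (10.2), which scored 7.18 in RT10 EtOH. The number of EtOH-bound genes without a 4-OHT summit in RT7 was 3, and became 5 when the 4-OHT summit had to lie within 100 bp of the EtOH summit. It became 1 when only listed starts counted (8 genes), by construction, since Klf5 and Tbx3 have no listed start. It was also 1 with the EtOH list shortened to the 4-OHT length, with or without ties. In RT10 it was 3, and 1 in the shortened list without ties. Upstream counts with 10 and 50 kb windows stayed within 1.5 times. Apart from genes bound in the shortened EtOH lists, no share of all protein-coding genes was computed for these alternative counts. Whether they differ from all genes is therefore unknown. No paired analysis was possible because each group has 1 list with no replicate number. With 1 list per group and unknown depth, a missing summit and a weaker one near the peak threshold cannot be told apart.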

Other observations

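The wider neighbourhood, a window added after the values were seen, held TBP summits at nearly all of these genes. In the gene body or up to 100 kb beyond either end, 9 of 10 genes had a summit in RT7 4-OHT. In RT7 EtOH and in both RT10 lists 10 of 10 had one. Among all protein-coding genes 20.2% and 32.1% had one in RT7 4-OHT and RT7 EtOH, and 27.3% and 34.5% in RT10 4-OHT and RT10 EtOH. Zfp42 was the gene without one, in RT7 4-OHT. Nanog had the most, with 8 in RT7 4-OHT and 12 in RT7 EtOH, and 11 in RT10 4-OHT and 10 in RT10 EtOH; its window holds other genes, so these summits are not all its own. Klf4 had 3 in every list and Pou5f1 1 in every list. Tbx3 had 1 in RT7 4-OHT and 3 in RT7 EtOH, and 5 in RT10 4-OHT and 7 in RT10 EtOH.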
